A study of Capra hircus with 10 samples.

Results

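The genes described here are the Wnt ligands, their receptors and the secreted proteins that modulate them in cultured goat mammary gland cells. They were chosen by symbol: every goat gene named WNT, FZD, SFRP, DKK or RSPO followed by a number, together with FRZB, LRP5, LRP6, WIF1 and AXIN2. That rule found 40 of the 17197 genes in the deposited file. They comprise 15 WNT ligands, 10 FZD receptors, 2 LRP co-receptors, 12 secreted modulators and the feedback gene AXIN2. Of the goat genes that RefSeq lists under such symbols, 5 (DKK1, WNT7A, WNT8A, WNT9B and WNT10A) were not analysed here.

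The study raised or lowered a long noncoding RNA, lncRNA55666, with a virus and sequenced total RNA. The cells came from the mammary gland of Lanshan dairy goats and were kept in 3D culture. Each of the 5 groups held 2 libraries. Blank cells are labelled as control and carry no named virus. Lv5NC and Lv3NC cells are labelled with the control constructs 5NC and 3NC. OV55666 cells overexpressed lncRNA55666, and in KD553 cells it was knocked down. Lv5NC was taken as the control of the overexpression and Lv3NC as that of the knockdown, since each stands just before that manipulation in the series text. The labels give no animal, age, passage, virus dose or time, and do not say whether a group's libraries stem from separate cultures. The p-values therefore cover no more than the spread among these 10 libraries, part or all of which may be technical. The KD553 libraries are called first and second by their column numbers alone, because titles and descriptions number them differently.

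Wnt proteins are lipid-modified secreted ligands that bind Frizzled (FZD) receptors. Together with the co-receptors LRP5 and LRP6 they stabilise beta-catenin, which then drives genes such as AXIN2, a brake on the same pathway. WNT5A is the classic ligand of the branch that works without beta-catenin, through FZD receptors and the receptor kinase ROR2. SFRP proteins, FRZB and WIF1 bind Wnt ligands outside the cell, DKK1 and its relatives act on the LRP co-receptors, and R-spondins (RSPO) amplify the signal by keeping FZD receptors at the cell surface. In the mammary gland, Wnt signals between stroma and epithelium take part in duct growth and branching.

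Values are FPKM, sequenced fragments scaled by transcript length and library total, which allows levels to be compared between genes. FPKM values keep no read numbers, so the depth of each library is unknown. The deposited values summed to between 440565 and 460423 per library, and between 10922 and 11163 genes per library reached 1 FPKM. The second Blank library stood farthest from the others: its median correlation with the other 9 libraries across genes was 0.983, against 0.990 to 0.993 for each of the rest. No row is named for lncRNA55666, so its level is not analysed here. The label of mammary gland cells was checked against cell type markers. All 12 fibroblast and mesenchymal markers were above 1 FPKM in every library, whereas 15 of 17 luminal epithelial markers stayed below 1 FPKM throughout, with KRT8 and EPCAM at most 0.02 and CDH1 at most 0.01. Of the basal or myoepithelial markers, KRT14 and TP63 reached at most 0.09 and 0.05, and the smooth muscle genes ACTA2 and TAGLN had means of 859 and 805. None of the 7 endothelial markers with a value reached 1 FPKM. Of 8 leukocyte markers 6 stayed below 1 FPKM, with CD14 between 16.9 and 37.2 and CD68 between 1 and 2.33. Of 6 adipocyte markers 5 stayed below 1 FPKM, with CIDEC between 3.13 and 7.41. The epithelial markers KRT8, EPCAM, CDH1, KRT14 and TP63 were thus at or near 0 in these cultures, whereas ESR1 was not.

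The cultures expressed a narrow set of Wnt genes. Of the 40 genes 20 passed the filter for testing, reaching 1 FPKM in 2 or more libraries. These were 4 of 15 ligands, 7 of 10 FZD receptors, both LRP co-receptors and 7 of 12 secreted modulators. Of the 20 that did not pass, FZD7 reached 1.03 FPKM in 1 library and 19 stayed below 1 FPKM in every library.

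WNT5A (gene 102170921) was the dominant ligand. It made up between 84.5% and 93.4% of the summed FPKM of the 15 ligands in every library. Its level was 77.0 and 35.2 FPKM in Blank, 184 and 114 in Lv5NC, 149 and 106 in OV55666, 107 and 158 in Lv3NC, and 87.4 and 144 in KD553. Both Blank libraries lay below all 8 virus libraries, and the 4 virus groups overlapped. WNT5B (gene 102176310), its close relative, was at 7.31 and 3.98 FPKM in Blank, 12.1 and 8.44 in Lv5NC, 10.7 and 8.42 in OV55666, 7.63 and 9.66 in Lv3NC, and 8.21 and 7.47 in KD553. Again both Blank libraries were the lowest, here by a narrow margin for the first of them. WNT5A exceeded WNT5B by a factor of 8.83 to 19.3 within a library. The other tested ligands were near the floor: WNT9A between 0.94 and 1.83 FPKM and WNT10B between 0.51 and 1.22. The highest library value was 0.55 FPKM for WNT6, 0.48 for WNT11, 0.35 for WNT2, 0.16 for WNT2B and 0.09 for WNT3. It was 0.07 for WNT16, 0.05 for WNT1, 0.04 for WNT7B, and 0.03 each for WNT3A and WNT8B. WNT4, which in the mammary epithelium acts downstream of progesterone, reached at most 0.11 FPKM.

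FZD1 (gene 102183205) dominated the receptors, with between 87.6% and 90.0% of the summed FPKM of the 10 FZD genes. It was at 138 and 126 FPKM in Blank, 138 and 154 in Lv5NC, 146 and 153 in OV55666, 143 and 143 in Lv3NC, and 163 and 132 in KD553. Its range over all 10 libraries, 126 to 163 FPKM, was narrow, and no group had both libraries outside the range of the other 8. FZD4 was at 7.44 and 5.81 FPKM in Blank, 4.52 and 6.61 in Lv5NC, 5.59 and 6.08 in OV55666, 5.25 and 3.51 in Lv3NC, and 7.26 and 4.38 in KD553. Both Lv3NC libraries were below both Blank libraries, and the other groups overlapped with Blank. FZD8 was at 3.58 and 2.98 FPKM in Blank, 4.09 and 3.69 in Lv5NC, 2.94 and 4.38 in OV55666, 4.69 and 4.56 in Lv3NC, and 6.69 and 5.11 in KD553, so both KD553 libraries were above the other 8. FZD10 was at 1.94 and 1.16 FPKM in Blank, 2.49 and 2.05 in Lv5NC, 2.88 and 2.04 in OV55666, 2.09 and 2.35 in Lv3NC, and 1.99 and 2.57 in KD553. Blank was the lowest throughout, by a narrow margin for its first library. FZD6 lay between 1.59 and 3.08, FZD2 between 1.15 and 1.74 and FZD5 between 0.69 and 1.31. FZD3 and FZD9 reached at most 0.12 and 0.28 FPKM.

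Of the co-receptors, LRP6 was the higher in every library. LRP6 was at 3.17 and 4.41 FPKM in Blank, 3.48 and 3.94 in Lv5NC, 3.91 and 3.79 in OV55666, 3.93 and 3.88 in Lv3NC, and 3.78 and 3.99 in KD553. LRP5 lay between 0.97 and 1.94 FPKM, and the ratio of LRP6 to LRP5 was between 1.95 and 4.

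**Figure D1:**
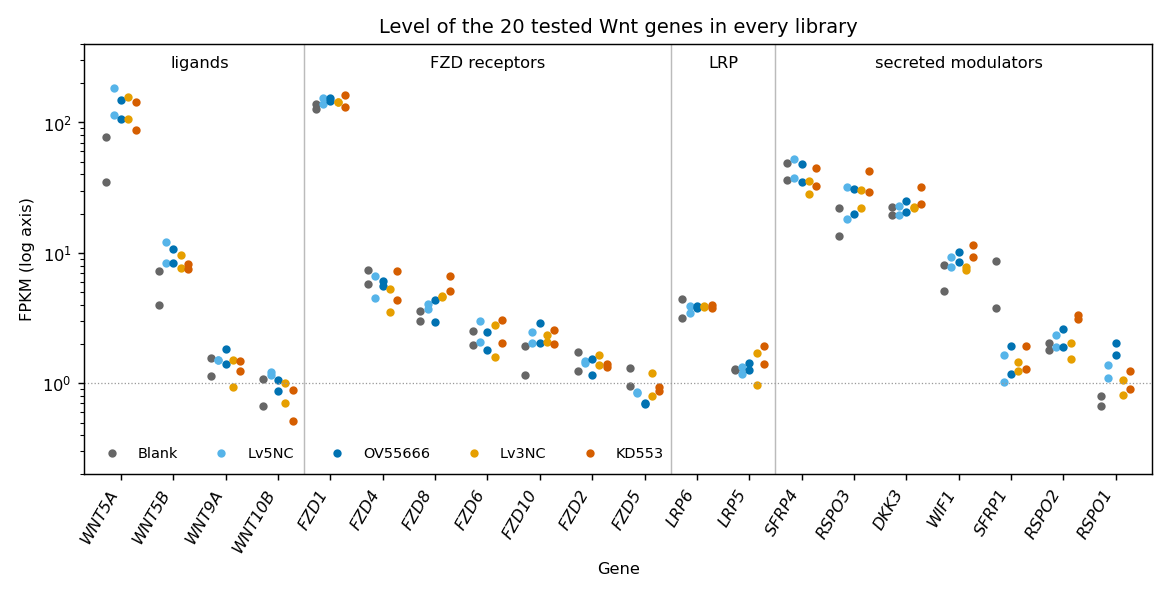
Level of the 20 tested Wnt genes (FPKM, log axis) ordered by role, with 1 point per library and a colour for each group of 2. WNT5A and FZD1 are the highest, SFRP4, RSPO3 and DKK3 between 13.4 and 52.1, and the other genes at or below 12.1. The dotted line marks 1 FPKM.

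Among the secreted modulators, SFRP4, RSPO3 and DKK3 had the highest levels. SFRP4 (gene 102178141), a Wnt-binding protein, was at 48.7 and 36.0 FPKM in Blank, 37.6 and 52.1 in Lv5NC, 35.2 and 47.9 in OV55666, 35.6 and 28.4 in Lv3NC, and 44.9 and 32.6 in KD553. Both Lv3NC libraries were below those of Lv5NC and, by a narrow margin, of Blank, and the other groups overlapped. RSPO3 (gene 100860772), an R-spondin, was at 13.4 and 22.1 FPKM in Blank, 31.9 and 18.2 in Lv5NC, 30.9 and 20.03 in OV55666, 22.2 and 30.2 in Lv3NC, and 29.2 and 42.2 in KD553. Within every group its libraries lay far apart. DKK3 (gene 102191633), a divergent member of the DKK family, was at 22.3 and 19.4 FPKM in Blank, 19.4 and 22.8 in Lv5NC, 20.7 and 25.2 in OV55666, 22.1 and 22.5 in Lv3NC, and 32.0 and 23.9 in KD553. Its first KD553 library was the highest of all.

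WIF1 (gene 102180191), which binds Wnt ligands directly, was at 8.04 and 5.08 FPKM in Blank, 7.79 and 9.38 in Lv5NC, 8.56 and 10.2 in OV55666, 7.82 and 7.34 in Lv3NC, and 11.4 and 9.38 in KD553. SFRP1 (gene 102176017), another Wnt-binding protein, was at 3.80 and 8.62 FPKM in Blank, 1.66 and 1.03 in Lv5NC, 1.92 and 1.18 in OV55666, 1.24 and 1.45 in Lv3NC, and 1.28 and 1.94 in KD553. Both Blank libraries stood above the other 8. The remaining R-spondins were low: RSPO2 between 1.54 and 3.33 FPKM, RSPO1 between 0.67 and 2.05, and RSPO4 at most 0.02. FRZB reached at most 0.12 FPKM, SFRP5 0.07, SFRP2 0.06 and DKK2 0.01. AXIN2, the usual reporter of beta-catenin activity, was at 0.36 and 0.27 FPKM in Blank, 0.28 and 0.25 in Lv5NC, 0.34 and 0.30 in OV55666, 0.27 and 0.50 in Lv3NC, and 0.30 and 0.40 in KD553. It did not pass the filter. Its OV55666 libraries were just above those of Lv5NC, and those of KD553 lay within the range of Lv3NC.

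The comparison of control viruses with Blank asked what virus delivery goes with. The largest single changes of the 20 Wnt genes, those of SFRP1 and WNT5A, were found here. The median absolute log2 change over the 20 was 0.15, beside 0.10 over all genes tested. It was 0.15 beside 0.086 for the knockdown against Lv3NC and 0.16 beside 0.070 between the control viruses. For overexpression against Lv5NC it was 0.085 beside 0.061. The first of these averages both control viruses, so its values spread less than those of single groups. Set against the mean of both control viruses, SFRP1 fell from 6.21 ± 3.41 FPKM (SD, n = 2) in Blank to 1.35 ± 0.45 in Lv5NC and 1.35 ± 0.15 in Lv3NC. The log2 change on the log2(FPKM + 1) scale was −1.54 ± 0.27 (SE), with an adjusted p of 0.0481 by limma over the 11340 genes tested. It was the 1 gene called among the 20 (1 lower, 0 higher), beside 1.01% of all genes tested (0.67% lower, 0.344% higher). WNT5A was at 56.1 ± 29.6 FPKM in Blank against 149 ± 49 in Lv5NC and 132 ± 36 in Lv3NC (log2 change 1.38 ± 0.38, adjusted p = 0.134 by limma), so it did not pass. WNT5B had a change of 0.68 ± 0.22 (adjusted p = 0.179) and FZD10 one of 0.36 ± 0.15 (adjusted p = 0.270). Groups did not overlap for 6 of the 20 genes, 5 higher and 1 lower in the control viruses, beside 26.1% of all genes tested (10.8% higher, 15.3% lower). In a bulk culture, fewer cells of a type and less RNA per cell cannot be told apart.

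The SFRP1 call was at the edge of the threshold. It was lost with a pseudocount of 0.5 (adjusted p = 0.0504) and without a filter on low values (0.0715). It was also lost when any library other than the first Blank one was left out, and without the second Blank library the change was −1.04. Without the first Blank library the SFRP1 change was −2.04, beside changes of 1.93 for WNT5A and 1.05 for WNT5B. These values rest on the second Blank library, which stood farthest from the others and held the extreme value of each of these genes. In those fits the lone Blank library is assumed to vary like the other groups.

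Singly, neither control virus gave a call among the 20 genes against Blank, where limma called 0.291% of all genes tested for Lv5NC and 0.132% for Lv3NC. At an unadjusted p under 0.05 there were 4 of 20 for Lv5NC and 3 of 20 for Lv3NC, beside 12.6% and 14.8% of all genes. SFRP1 changed by −1.55 ± 0.31 in Lv5NC and −1.54 ± 0.31 in Lv3NC (limma adjusted p = 0.103 and 0.114). The values for WNT5A were 1.46 ± 0.43 and 1.30 ± 0.43 (adjusted p = 0.219 and 0.251), and those for WNT5B 0.79 ± 0.25 and 0.58 ± 0.25 (adjusted p = 0.245 and 0.344). These comparisons share the Blank libraries, so the likeness of their values is no separate support. RSPO1 was 0.37 ± 0.14 higher in Lv5NC (limma adjusted p = 0.300) and FZD8 0.40 ± 0.16 higher in Lv3NC (adjusted p = 0.302). RSPO1 passed the filter through virus libraries alone, so its direction against Blank was fixed by the filter. In Lv5NC the groups did not overlap for 6 genes that were higher and 2 that were lower, beside 15.5% and 23.8% of all genes tested (39.4% in either direction). In Lv3NC it was 7 higher and 3 lower, beside 24.3% and 21.9% (46.2% in either direction).

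Across all 8 virus libraries, WNT5A, WNT5B, FZD10 and RSPO1 lay above both Blank libraries and SFRP1 lay below both. That is 4 of 20 higher, beside 6.51% of all genes tested, and 1 of 20 lower, beside 8.4%. The margin was narrow for WNT5B, FZD10 and RSPO1. RSPO1 stayed below 1 FPKM in both Blank libraries and passed the filter through virus libraries alone. Its direction against Blank was therefore fixed by the filter, here and in the counts without overlap above.

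Other cell type markers differed in the same comparison. The pericyte markers ABCC9 and KCNJ8 were at 5.19 and 8.16 and at 6.85 and 6.41 FPKM in Blank, and at no more than 2.02 and 2.36 in the virus libraries. Both fell in the control viruses (log2 changes −1.81 ± 0.25 and −1.68 ± 0.26, limma adjusted p = 0.0345 and 0.0434). ABCC9 was called in 13 and KCNJ8 in 8 of 21 other settings. They are 2 of 6 pericyte markers, of which 4 were tested and RGS5 and MCAM stayed at or below 0.09 FPKM. Over all genes tested 1.01% were called in this comparison (0.67% lower). No tested marker of the other cell type lists was called in it. These lists were drawn up with earlier results of these data known. The remaining pericyte markers had values above 0 in this comparison: CSPG4 had a change of 0.35 ± 0.13 (adjusted p = 0.215) and NOTCH3 one of 0.14 ± 0.14 (adjusted p = 0.636). The summed level of that list was 39.1 to 44.9 FPKM in Blank, 37.9 to 41.7 in Lv5NC and 33.6 to 40.6 in Lv3NC. The basal or myoepithelial list, whose summed level comes almost wholly from the smooth muscle genes ACTA2, TAGLN and MYLK, summed to between 1864 and 3048 FPKM in Blank, with the higher value in the second library, and to between 1683 and 1845 in the control viruses. Of the 12 fibroblast markers 9 had a change below 0, with a median of −0.21. The part of these differences in the SFRP1 and WNT5A values was not tested.

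**Figure D2:**
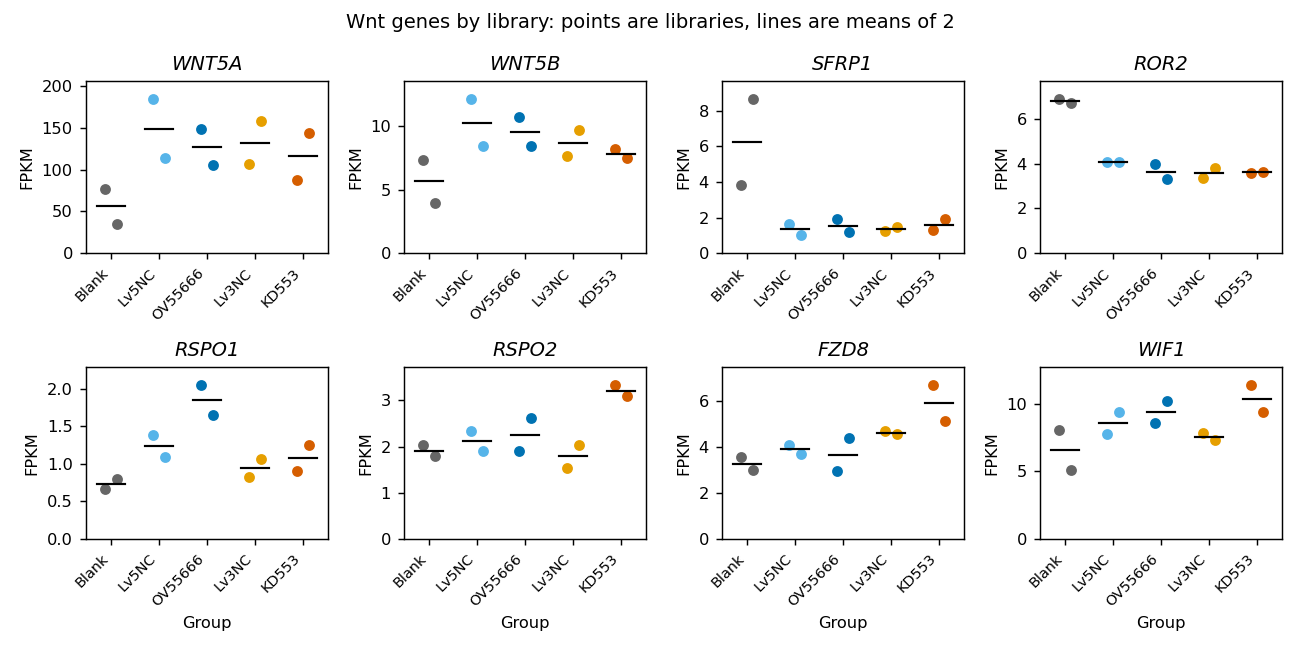
FPKM of 7 Wnt genes and the WNT5A receptor gene ROR2 in every library by group (points are libraries, black lines the means of 2, all axes from 0). Blank stands apart for WNT5A, SFRP1 and ROR2, OV55666 is highest for RSPO1, and KD553 is highest for RSPO2 and FZD8.

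Overexpression of lncRNA55666 was compared with Lv5NC. None of the 20 Wnt genes passed, with 0% of all genes tested called by limma. At an unadjusted p under 0.05 there was 1 of 20, RSPO1, beside 1.46% of all genes. RSPO1 (gene 100860770) was at 0.67 and 0.80 FPKM in Blank, 1.39 and 1.09 in Lv5NC, 2.05 and 1.65 in OV55666, 0.82 and 1.06 in Lv3NC, and 0.91 and 1.25 in KD553. It passed the filter through virus libraries alone, so its direction against Blank was fixed by the filter. Both OV55666 libraries were above the other 8, as was the case for 1.28% of all genes tested. The log2 change was 0.35 ± 0.14 (SE; 95% interval 0.038 to 0.66, limma adjusted p = 1.00), and against Blank in place of Lv5NC it was 0.71 (adjusted p = 0.0773).

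The other genes with the smallest p in this comparison changed little. WNT10B was at 1.07 and 0.67 FPKM in Blank, 1.22 and 1.15 in Lv5NC, 1.06 and 0.88 in OV55666, 0.70 and 1.01 in Lv3NC, and 0.89 and 0.51 in KD553, a log2 change of −0.15 ± 0.16 in OV55666. FZD5 was at 0.95 and 1.31 FPKM in Blank, 0.84 and 0.86 in Lv5NC, 0.69 and 0.71 in OV55666, 1.2 and 0.80 in Lv3NC, and 0.94 and 0.88 in KD553, a change of −0.12 ± 0.13. Both OV55666 libraries were the lowest for FZD5, which 0.847% of all genes tested shared. DKK3 had a change of 0.11 ± 0.15. Groups did not overlap for 3 of 20, RSPO1 higher and WNT10B and FZD5 lower, beside 26.8% of all genes tested (17.7% higher, 9.07% lower). For WNT5A the interval of the change reached from −1.22 to 0.81, so changes within that range, in either direction, were not excluded by these libraries. That for FZD1 was narrower, from −0.22 to 0.30. Over the 20 genes the median change was 0.043, beside 0.019 over all genes tested.

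Knockdown of lncRNA55666 was compared with Lv3NC. Again none of the 20 passed, where limma called 0.0705% of all genes tested (0.0441% higher, 0.0265% lower), and 1 of 20 had an unadjusted p under 0.05, beside 7.52% of all genes. That gene was RSPO2 (gene 100860771), an R-spondin known from limb and lung development. It was at 2.03 and 1.79 FPKM in Blank, 2.34 and 1.90 in Lv5NC, 1.90 and 2.61 in OV55666, 1.54 and 2.03 in Lv3NC, and 3.33 and 3.09 in KD553. The log2 change was 0.60 ± 0.14 (95% interval 0.29 to 0.91, adjusted p = 0.253). With Lv5NC as the control it was 0.44 (adjusted p = 0.440) and with Blank 0.53 (adjusted p = 0.0859).

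WIF1, DKK3 and FZD8 had the next smallest p. WIF1 was at 10.4 ± 1.4 FPKM in KD553 against 7.58 ± 0.34 in Lv3NC, a log2 change of 0.40 ± 0.18 (limma adjusted p = 0.667). DKK3 was at 27.96 ± 5.71 against 22.3 ± 0.3 FPKM, a change of 0.30 ± 0.15 (adjusted p = 0.716). FZD8 was at 5.90 ± 1.1 against 4.63 ± 0.09 FPKM, a change of 0.29 ± 0.16 (adjusted p = 0.754). These 4 genes were those whose KD553 and Lv3NC libraries did not overlap, all higher in KD553, beside 19.3% of all genes tested that were higher without overlap and 37.7% in either direction. RSPO2 and FZD8 also had both KD553 libraries above the other 8, beside 5.94% of all genes tested.

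WNT5A was at 116 ± 40 FPKM in KD553 against 132 ± 36 in Lv3NC, a change of −0.21 ± 0.43 with an interval from −1.22 to 0.81. For SFRP1 the change was 0.14 ± 0.31, for FZD1 0.035 ± 0.11 and for LRP6 −0.0062 ± 0.12. Of the 20 genes 14 had a change above 0, with a median of 0.12, beside 0.0028 over all genes tested. Of the 12 fibroblast markers 11 had a change above 0 in the same comparison, with a median of 0.11, and the part of that shift in the Wnt values was not tested.

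The effects of overexpression and knockdown were set against each other in a single contrast, since the labels give them as opposite manipulations of the same RNA, which could not be checked here. None of the 20 passed, with 0% of all genes tested called and 3.4% at an unadjusted p under 0.05. RSPO2 had the smallest p: its overexpression effect was 0.056 ± 0.14 and its knockdown effect 0.60 ± 0.14, a difference of −0.55 ± 0.20 (limma adjusted p = 1.00). The differences for FZD8, RSPO1 and WIF1 were −0.37 ± 0.23, 0.25 ± 0.19 and −0.29 ± 0.26, with the same adjusted p to 3 digits. RSPO1 was highest in OV55666 and RSPO2 highest in KD553, and neither difference passed.

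**Figure D3:**
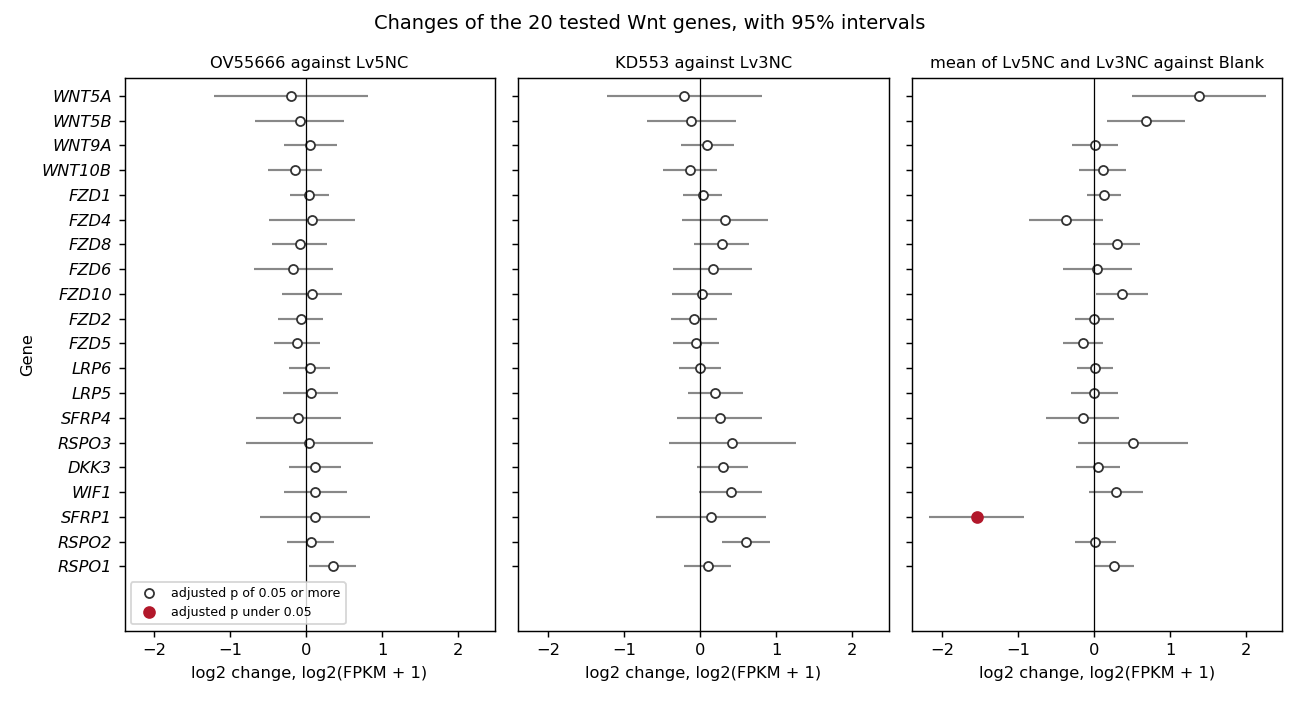
Log2 change of each of the 20 tested Wnt genes on the log2(FPKM + 1) scale in 3 comparisons, with 95% intervals from limma, in the order of roles used above. SFRP1 in the control viruses against Blank, at −1.54, is the filled point; intervals of WNT5A and RSPO3 are the widest in the other panels and that of FZD1 is among the narrowest.

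The control viruses were compared with each other because each serves as the reference of 1 manipulation. None of the 20 passed and none had an unadjusted p under 0.05, beside 0% and 2.67% of all genes tested. SFRP4 was at 32.0 ± 5.1 FPKM in Lv3NC against 44.8 ± 10.2 in Lv5NC (−0.46 ± 0.24, limma adjusted p = 1.00), WNT10B changed by −0.24 ± 0.16, RSPO1 by −0.21 ± 0.14 and FZD8 by 0.20 ± 0.16. In these 4 genes the groups did not overlap, 1 higher and 3 lower, beside 30.9% of all genes tested (20.2% higher, 10.7% lower). A test for any difference among the 5 groups called none of the 20 either, beside 0.326% of all genes tested. Its smallest p values belonged to SFRP1, RSPO1, FZD8 and RSPO2 (adjusted p = 0.191, 0.203, 0.283 and 0.283 by limma).

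Several Wnt genes differed between the 2 libraries of a group, in an order that recurred. Within each of the 4 virus groups, the library with more WNT5A also had more RSPO3, FZD6, FZD10, SFRP1 and RSPO1, and less SFRP4, FZD4, WIF1, FZD1 and FZD5. For FZD1 in Lv3NC and FZD5 in Lv5NC and OV55666 the gap was between 0.0008 and 0.017 on the log2 scale. The higher WNT5A value belonged to the first library in Lv5NC and OV55666 and to the second in Lv3NC and KD553. WNT5A differed by 0.68 on the log2 scale between the Lv5NC libraries, by 0.49 between those of OV55666, by 0.56 between those of Lv3NC and by 0.71 between those of KD553. For RSPO3 the gaps were 0.77, 0.60, 0.43 and 0.51 in the same order of groups. For SFRP4, which ran the other way, they were 0.46, 0.44, 0.32 and 0.45. These gaps were as large as or larger than the changes of the same genes between a manipulation and its control, where RSPO3 had 0.042 in OV55666 and 0.42 in KD553.

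The pattern was chosen after the values were seen and has no test. The 10 genes ordered with or against WNT5A are 10 of the 19 others, beside 17% of all genes tested ordered as WNT5A and 16% ordered against it. WNT5B followed WNT5A in 3 of the 4 virus groups, with the opposite order in KD553. Blank did not share the pattern: its first library had more WNT5A (gap 1.11) and less RSPO3 (gap 0.67) and SFRP1 (gap 1.00). The first library minus the second gave, for the median of the 12 fibroblast markers, −0.015 in Lv5NC, 0.076 in OV55666, −0.065 in Lv3NC and 0.16 in KD553. For the pericyte list it gave −0.42, 0.14, 0.31 and 0.44. Their part in the order of the Wnt genes was not tested.

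**Figure D4:**
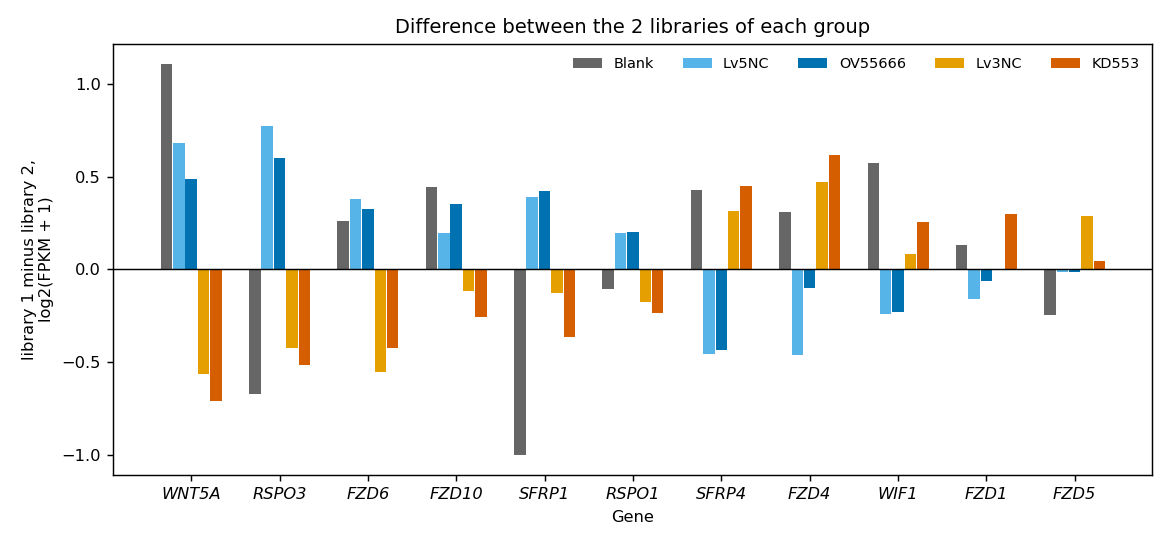
Difference between the 2 libraries of each group (first minus second, on the log2(FPKM + 1) scale) for WNT5A and the 10 tested Wnt genes ordered with it or against it in all 4 virus groups. Bars of Lv5NC and OV55666 point one way and those of Lv3NC and KD553 the other, and Blank follows neither in every gene.

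Genes that make, receive or relay Wnt signals were examined as lists beside the 40. For secretion and further receptors, 15 of 21 genes in the table were tested. WLS, the carrier that brings Wnt ligands to the cell surface, had a mean of 24.7 FPKM, and PORCN, which attaches their lipid, one of 3.80. The receptor kinases RYK and PTK7 had means of 40.7 each, and the proteoglycan SDC1 one of 139. ROR2, the receptor kinase that binds WNT5A, was at 6.86 and 6.72 FPKM in Blank, 4.07 and 4.07 in Lv5NC, 3.98 and 3.30 in OV55666, 3.38 and 3.80 in Lv3NC, and 3.57 and 3.64 in KD553. It fell in both control viruses together (−0.69 ± 0.08, limma adjusted p = 0.0138) and singly in Lv5NC (−0.62 ± 0.10, adjusted p = 0.0437) and Lv3NC (−0.76 ± 0.10, adjusted p = 0.0349). Every virus library was below both Blank libraries, as was the case for 8.4% of all genes tested. GPC6, a cell surface proteoglycan, was at 3.15 and 1.98 FPKM in Blank, 0.29 and 0.73 in Lv5NC, 0.33 and 0.55 in OV55666, 0.69 and 0.21 in Lv3NC, and 0.33 and 0.08 in KD553. It passed the filter through the Blank libraries alone, so its direction was fixed by the filter, and its change in the control viruses (−1.27 ± 0.20, adjusted p = 0.0385) is given as a description.

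Among 21 other settings, ROR2 was called in 18 against the mean of both control viruses, in 6 for Lv5NC alone and in 12 for Lv3NC alone. Its change against the mean lay between −0.81 and −0.66 in all of them. Of the 15 tested genes 2, ROR2 and GPC6, were called lower in the mean of both control viruses, beside 0.67% of all genes tested. ROR2 was the 1 called for Lv5NC and for Lv3NC alone, beside 0.291% and 0.132%. The list was drawn up with earlier results of these data known. No gene of the list was called for overexpression or knockdown, with median changes of −0.0062 and 0.034, beside 0.019 and 0.0028 over all genes tested.

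In the relay to beta-catenin 29 of 31 genes were tested. CTNNB1, beta-catenin itself, had a mean of 127 FPKM, and the kinases CSNK1A1 and CSNK1D means of 59.9 and 37.4. Of the nuclear partners, TCF7L2 and TCF7L1 had means of 9.91 and 9.08 FPKM, whereas LEF1 reached at most 0.67. TCF7L1, which mostly represses target genes, was at 10.6 and 12.1 FPKM in Blank, 7.28 and 8.45 in Lv5NC, 7.46 and 8.30 in OV55666, 7.57 and 7.18 in Lv3NC, and 10.9 and 10.9 in KD553. It fell in the control viruses (−0.52 ± 0.08, limma adjusted p = 0.0400), and was called in 11 of 21 other settings. TCF7L1 was the 1 gene called of the 29 tested, beside 1.01% of all genes tested (0.67% lower). The KD553 libraries lay within the range of Blank and above the other 6. The share of all genes with that order was not computed, and 19.3% were higher in KD553 than in Lv3NC without overlap. No gene of the list was called for overexpression (median −0.024) or knockdown (median 0.0026).

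Of the genes of planar cell polarity and the calcium branch, 18 of 22 were tested and none was called in any comparison. RHOA, RAC1 and CDC42, small GTPases of the cytoskeleton, had means of 285, 113 and 89.7 FPKM. VANGL1 had a mean of 5.06 FPKM, and VANGL2, CELSR1 and CELSR2 at most 0.33.

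Of the common targets of beta-catenin, 14 of 23 were tested, and this list shares TCF7, LEF1, RNF43, ZNRF3 and NOTUM with the others. Among the targets that are close to the pathway levels were mixed. NKD1, NKD2, RNF43, NOTUM and TNFRSF19 reached at most 0.45 FPKM, and ZNRF3 had a mean of 1.23, whereas SP5, a transcription factor gene induced by Wnt signals in many tissues, had a mean of 11.2 (5.20 to 14.1). Broadly regulated targets were high, with CD44 at a mean of 133 FPKM, ID2 at 55.5 and FOSL1 at 29.4. The T-box gene TBX3, needed for mammary bud formation, was at 5.03 and 3.73 FPKM in Blank, 9.88 and 12.02 in Lv5NC, 9.53 and 10.6 in OV55666, 8.66 and 7.30 in Lv3NC, and 11.2 and 8.85 in KD553. It rose in the control viruses (0.95 ± 0.13, limma adjusted p = 0.0257) and in Lv5NC alone (1.16 ± 0.15, adjusted p = 0.0364). TBX3 was the 1 target called of the 14 tested in each, beside 1.01% and 0.291% of all genes tested. It was called in 14 and 13 of 21 other settings of these comparisons. The list was drawn up with earlier results of these data known, so its counts are given as a description.

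In the knockdown 1 of the 14 tested targets was called, beside 0.0705% of all genes tested. This was the homeobox gene MSX2, at 19.1 and 17.0 FPKM in Blank, 20.1 and 20.7 in Lv5NC, 22.3 and 23.2 in OV55666, 18.8 and 21.6 in Lv3NC, and 32.4 and 32.9 in KD553. It rose against Lv3NC (0.67 ± 0.09, limma adjusted p = 0.0454). MSX2 is also a target of BMP signalling, and was called in 8 of 24 other settings. Of the 14 tested targets 11 had a change above 0 in the knockdown, with a median of 0.18, beside a median of 0.0028 over all genes tested and 11 of 12 fibroblast markers above 0. For overexpression it was 6 of 14, with a median of −0.037, beside 0.019 over all genes. These lists were drawn up with earlier results of these data known, and some targets answer to other pathways too.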

How the data were processed

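RNA sequencing values came from 10 libraries in 5 groups of 2, grouped by sample title. Per the file headers, the authors deposited FPKM, with values for 17197 genes given to 2 decimals. Not given in the sources used here were which aligner, which quantifier and which reference build they used. The smallest value above 0, 0.01, equals the rounding step, so read numbers could not be recovered and depth is unknown. Symbols came from the RefSeq table for ARS1.2, which matched 16658 rows by NCBI gene identifier.

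Values were analysed as log2(FPKM + 1) with limma 3.58.1 in R 4.3.3 (a mean per group over all 10 libraries, trend and robust options, 5 residual degrees of freedom) for the 11340 genes that reached 1 FPKM in 2 or more libraries. The pseudocount of 1 understates changes of low genes. p-values were adjusted by Benjamini-Hochberg over all 11340 genes and called under 0.05. The steps were tested on simulated data.

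The members and lists were chosen with earlier results of these data known. Values of every library are given for called genes, the 4 genes with the smallest p per comparison and the 10 with the highest mean, and for called genes of the other lists. The 3 highest genes of each such list are given by their mean. Other list genes are named for their role and were chosen after their values were seen. Alternatives covered the pseudocount, the filter, scaling, moderation, the libraries in the fit, controls and replicate numbers.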

Additional observations from a re-analysis of the deposited data

How the results depend on the processing

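The number of Wnt genes called in the mean of both control viruses against Blank, 1 in the fit reported, was 0 with a pseudocount of 0.1, a pseudocount of 0.5, no filter, quantile normalization and a fit of only the groups compared. Leaving out single libraries gave 0 to 3, with 3 (SFRP1, WNT5A and WNT5B) without the first Blank library and 0 without any of the others. Without the first Blank library there were also 2 calls for Lv5NC against Blank (SFRP1 and WNT5B), 1 for Lv3NC against Blank (SFRP1) and 1 for any difference among the groups (SFRP1), so over single libraries left out these counts ran from 0 to 2, 0 to 1 and 0 to 1. In the comparisons of overexpression and of knockdown, of their effects, and of one control virus with the other, the count was 0 under each alternative run. The change of DKK3 in OV55666 turned to −0.023 without the second OV55666 library and ran up to 0.25 without the first, and that of WNT10B turned to 0.082 with Blank as control. The replicate numbers did not pair the libraries over all groups: the difference between libraries 1 and 2 correlated across genes at 0.503 between Lv5NC and OV55666 and at 0.444 between Lv3NC and KD553, but between −0.622 and −0.383 from the first pair of groups to the second. When column numbers served as a replicate block, or with the KD553 numbers exchanged, the count for the control viruses against Blank was 0, and it stayed at 0 elsewhere. A further setting, chosen after seeing the data, used the numbers as a replicate block only within each manipulation and its control, with Blank outside. The count was then 2 for the mean of both control viruses against Blank (SFRP1 and WNT5A) and 1 for Lv5NC against Blank (SFRP1). Calls over all genes tested rose as well there, from 115 to 431 and from 33 to 192. The count of Wnt genes was 0 for overexpression and knockdown. For RSPO3 in KD553 the change of 0.42 had an SE of 0.19 in place of 0.36 (limma adjusted p = 0.525). Unknown depth limits the genes near 1 FPKM, where no counting interval can be given.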

Other observations

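The balance of the Wnt-binding proteins differed widely between libraries. The ratio of SFRP4 to SFRP1 was 12.8 and 4.17 in Blank, 22.6 and 50.6 in Lv5NC, 18.3 and 40.6 in OV55666, 28.7 and 19.6 in Lv3NC, and 35.1 and 16.8 in KD553. Both Blank libraries were below all 8 virus libraries. No test was run on this ratio, which was formed after the values were seen.

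These genes were picked after their values were seen. BMP4, a ligand of another pathway that is listed here as a beta-catenin target, was at 9.36 and 10.5 FPKM in KD553 and between 5.30 and 8.16 in the other 8 libraries, beside 5.94% of all genes tested with both KD553 libraries above the other 8. SP5, a close target of beta-catenin in many tissues, lay between 5.20 and 14.1 FPKM, with its lowest value in the second Blank library, while AXIN2 did not exceed 0.50 FPKM in any library.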
